A study of Mus musculus with 12 samples.

Results

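Interleukin-10 (IL-10), IL-22 and the receptor chains that read them were followed in RNA-seq data from mouse regulatory T cells (Treg) with and without a conditional deletion of Kdm2b. The 4 genes, Il10, Il22, Il10ra and Il10rb, were chosen by name and were found in both deposited tables. They are 4 of 16232 genes in the in vivo table and 4 of 24421 genes in the in vitro table.

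IL-10 is a cytokine that restrains immune responses, and effector Treg are among its main sources. It binds a receptor of 2 kinds of chain: IL-10RA, which recognises IL-10 and sits mainly on blood cells, and IL-10RB, which is widely expressed and is shared with the receptors for IL-22 and the lambda interferons. Receptor binding activates the kinases JAK1 and TYK2 and then the transcription factor STAT3. IL-22 is made by lymphocytes, above all innate lymphoid cells and Th17 and Th22 cells, but acts on epithelial and other non-blood cells that carry IL-22RA1.

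The study sequenced polyadenylated RNA from Treg of spleen and lymph nodes, in 6 groups of 2 libraries. The groups were Treg in vivo from mice with a conditional knockout of Kdm2b (cKO), Treg in vivo from wild-type (WT) mice, and the 4 in vitro groups: cKO stimulated, WT stimulated, cKO unstimulated and WT unstimulated. Kdm2b encodes a protein that binds unmethylated CpG islands and brings the Polycomb complex PRC1.1 to them, and the comparisons ask how Treg transcription depends on it before and after activation. The Cre line, the age and sex of the mice, the stimulus and its duration, and whether the replicates came from separate mice are not given in the sources used here, so the p-values measure only the spread between these libraries, which may be technical.

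Values are FPKM, which divide a gene's fragments by its length and by the total of the library, and the depth of the libraries is unknown. Kdm2b itself had 125 to 146 FPKM in cKO Treg in vivo, against 110 to 113 FPKM in WT Treg in vivo. It had 66.3 to 70.5 FPKM in cKO and 71.7 to 74.5 FPKM in WT stimulated Treg, and 89.8 to 97.4 FPKM in cKO and 84.9 to 94.9 FPKM in WT unstimulated Treg. A level summed over the whole gene does not check a label if only some exons were deleted, and the deleted exons are not given in the sources used here. All 7 Treg markers (Foxp3, Il2ra, Ikzf2, Ctla4, Tnfrsf18, Cd4 and Cd3e) were above 0 in all 12 libraries. The second WT libraries stood apart in vitro, with 13273 genes listed at 0 in the stimulated and 12379 in the unstimulated one, against 9102 to 9857 in the other 6. The first cKO libraries also stood apart, with haemoglobin genes holding 10.3% of all FPKM in the stimulated and 11.6% in the unstimulated library, while this share was 0.00678% to 1.86% in the remaining 6 cultures.

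Il10 was lower in both cKO libraries than in both WT libraries in all 3 settings, and Il10ra was too. In a single setting this held for 25.8% of all genes tested in vivo, 29.8% in stimulated and 16.6% in unstimulated cells. The share of all genes that were lower in all 3 settings was not computed. Il10rb, the shared chain, was called in no comparison. Il22 was below 2 FPKM in every unstimulated culture, had at least 129 FPKM in every stimulated one, and had its highest values in the stimulated cKO libraries. Each comparison used limma on log2(FPKM + 1) with Benjamini-Hochberg adjustment over all genes tested, and a gene was called where the adjusted p was below 0.05. Adding 1 to the FPKM makes the fold changes of low genes smaller than they are on the FPKM scale.

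**Figure D1:**
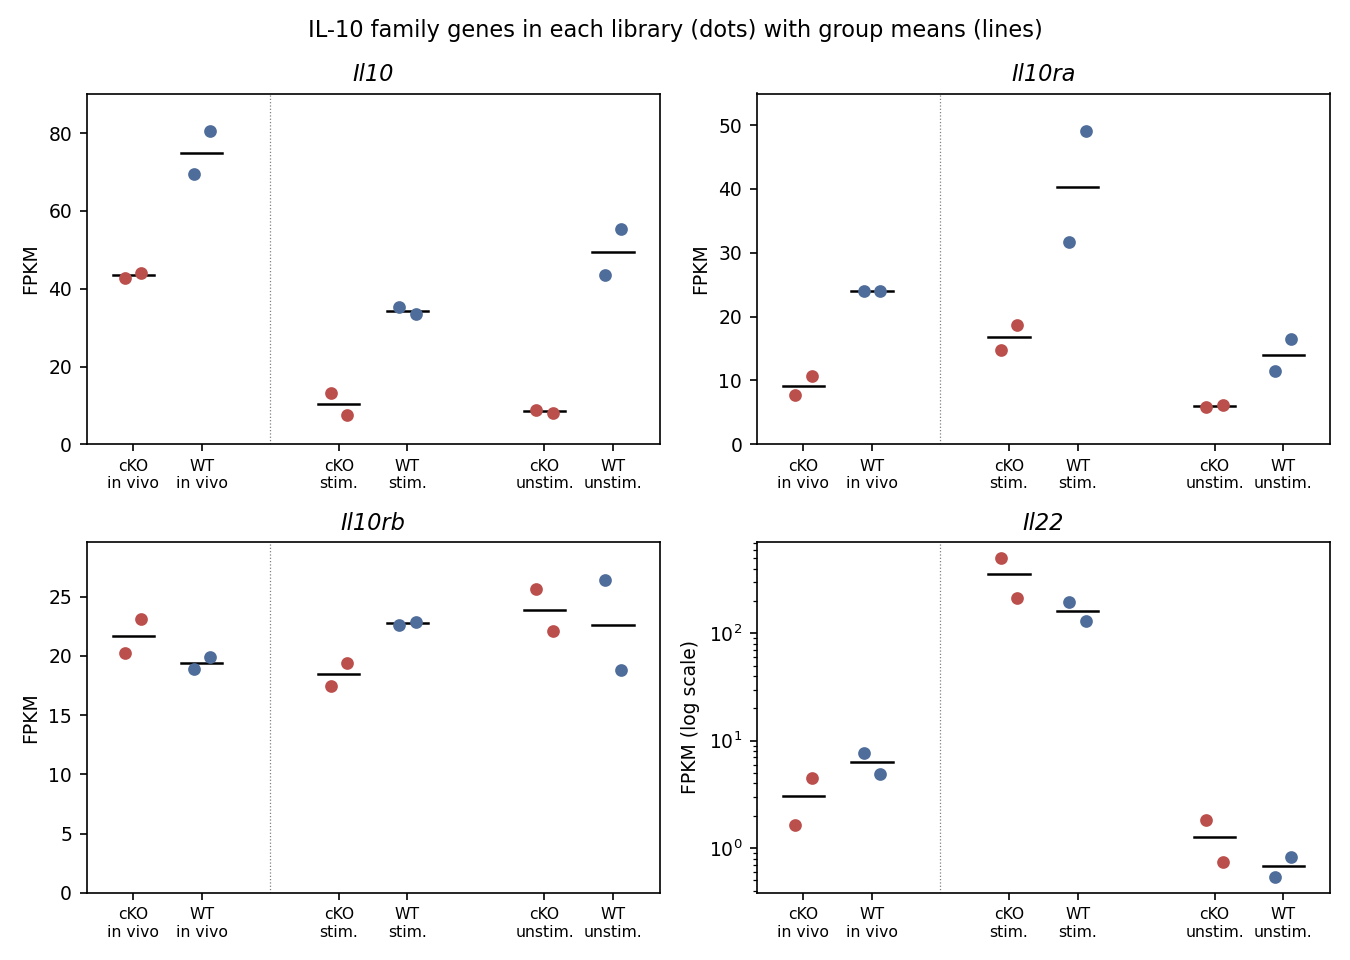
FPKM of Il10, Il10ra, Il10rb and Il22 in the 12 libraries, 1 panel a gene, each point 1 library and each horizontal line the mean of the 2 libraries of a group, with a log axis for Il22. The 2 cKO points lie below the 2 WT points in each of the 3 settings for Il10 and Il10ra, and Il22 is at 129 FPKM or more in the 4 stimulated libraries and at 7.67 FPKM or less in the others. The in vivo and in vitro tables were normalised separately, so heights are not to be set against each other across them.

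Il10 encodes the cytokine itself and lies on the plus strand at chr1:131019845-131024974 (GRCm38). In Treg in vivo it had 42.8 and 44.2 FPKM in cKO libraries, against 69.5 and 80.6 FPKM in WT libraries. The groups did not overlap, with cKO the lower, as for 25.8% of all genes tested in vivo, and the WT mean was 1.73 times the cKO mean. In bulk RNA, fewer cells that express a gene and less RNA per cell cannot be told apart. The log2 difference of Il10 in vivo was -0.77 (SE 0.11), with a limma adjusted p of 0.0592, so it was not called.

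In unstimulated cultures, Il10 had 8.93 and 8.14 FPKM in cKO libraries, against 43.5 and 55.4 FPKM in WT libraries. In stimulated cultures it had 13.1 and 7.59 FPKM in cKO libraries, against 35.4 and 33.4 FPKM in WT libraries. All 4 cKO libraries in vitro were thus below all 4 WT libraries, and the WT mean was 5.80 times the cKO mean in unstimulated and 3.32 times in stimulated cells. Of all genes tested, both cKO libraries were below both WT libraries for 16.6% in unstimulated and 29.8% in stimulated cells. The share with all 4 cKO libraries below all 4 WT libraries was not computed. Il10 fell by 2.40 (SE 0.25, adjusted p = 0.0189, limma) on the log2 scale in unstimulated cKO Treg. It was 1 of the 2 genes called lower there (0.0187%). Across all 10710 genes tested, 8 were called in this comparison (0.0747%). This call was lost without any 1 of the 4 unstimulated libraries, with adjusted p-values of 0.304 and 0.289 without the first and second cKO library and 0.0674 and 0.133 without the first and second WT library, while the difference stayed between -2.57 and -2.23. Without both second WT libraries it was -2.23 (adjusted p = 0.0525), and without both first cKO libraries -2.46 (0.215).

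The stimulated difference of Il10, -1.68 (SE 0.25, adjusted p = 0.0864, limma), was not called. Of all genes, 2 were called in stimulated cells (0.0187%), while 1508 had an unadjusted p under 0.05. Averaged over both culture states, Il10 fell by 2.04 (SE 0.18, adjusted p = 0.00586, limma) in cKO Treg, and 116 of 10710 genes were called in that average (1.08%). This call held without any 1 of the 8 libraries (adjusted p = 0.00898 to 0.0387) and without both second WT libraries (-1.98, adjusted p = 0.0169), and it was lost without both first cKO libraries (-2.25, adjusted p = 0.0564). The average treats the 2 states as independent libraries, and same-numbered cultures of a genotype deviated together (r = 0.42 in cKO and 0.239 in WT across genes). With each such pair of cultures averaged into 1 value, an alternative chosen after seeing the data, the difference was still -2.04 but was not called (adjusted p = 0.1001). That fit called 0 genes (limma), with 1196 at an unadjusted p under 0.05, so no call in the culture average held in it. Whether the genotype difference changed with stimulation was tested by the interaction term, which was 0.71 (SE 0.35) for Il10 with an adjusted p of 0.999. That term called 0 genes (0%), and 380 had an unadjusted p under 0.05.

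Stimulation gave no call for Il10. In cKO Treg the stimulated libraries, at 13.1 and 7.59 FPKM, overlapped the unstimulated ones at 8.93 and 8.14 FPKM. In WT Treg both stimulated libraries, at 35.4 and 33.4 FPKM, were below the unstimulated ones at 43.5 and 55.4 FPKM, as for 22.9% of all genes. The log2 differences were 0.21 (SE 0.25, adjusted p = 0.686) in cKO and -0.50 (SE 0.25, adjusted p = 0.322) in WT cells, limma, and were not called. The cKO value turned to -0.15 without the first stimulated cKO library.

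Il10 was also set against Foxp3, the transcription factor that defines Treg, because Foxp3 moved in culture too. Foxp3 had 114 and 117 FPKM in cKO and 106 and 107 FPKM in WT Treg in vivo. In unstimulated cultures it had 71.5 and 82.6 FPKM in cKO and 194 and 189 FPKM in WT libraries. In stimulated cultures it had 238 and 268 FPKM in cKO and 529 and 696 FPKM in WT libraries. Averaged over both culture states Foxp3 fell by 1.29 (adjusted p = 0.00722, limma) in cKO Treg, a call that was lost without the first stimulated cKO library (adjusted p = 0.0542) and with same-numbered cultures averaged (0.119). The part of this in the Il10 result was not tested.

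The ratio of Il10 to Foxp3 was 0.376 and 0.377 in cKO and 0.652 and 0.761 in WT Treg in vivo. In unstimulated cultures it was 0.125 and 0.0985 in cKO and 0.224 and 0.293 in WT libraries. In stimulated cultures the ratio was 0.0553 and 0.0284 in cKO and 0.0669 and 0.0480 in WT libraries, where the genotypes overlapped. Relative to Foxp3, then, Il10 was lower in both cKO libraries in vivo and in unstimulated cells but not in every stimulated one. How often other genes part the genotypes relative to Foxp3 was not computed.

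Il10ra encodes the ligand-binding chain and lies on the minus strand at chr9:45253837-45269149 (GRCm38), a span that also holds the microRNA gene Mir7086 and a processed pseudogene, Gm20612. In vivo it had 7.68 and 10.6 FPKM in cKO libraries, against 24.0 FPKM in each WT library. The groups did not overlap, with cKO the lower, as for 25.8% of all genes tested in vivo, and the WT mean was 2.62 times the cKO mean. Il10ra fell by 1.31 (SE 0.16, adjusted p = 0.0374, limma) on the log2 scale in cKO Treg in vivo, and 39 of 10415 genes were called in that comparison (0.374%), 15 of them lower (0.144%). Leaving out the first or the second WT library gave adjusted p-values of 0.0633 and 0.110 at the same size of difference.

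In stimulated cultures Il10ra had 14.8 and 18.7 FPKM in cKO libraries, against 31.6 and 49.1 FPKM in WT libraries. In unstimulated cultures it had 5.91 and 6.14 FPKM in cKO libraries, against 11.5 and 16.5 FPKM in WT libraries. The cKO pair was below the WT pair in both states, as for 29.8% of all genes in stimulated and 16.6% in unstimulated cells. The share of all genes lower in both states was not computed. The WT mean was 2.41 times the cKO mean in stimulated and 2.32 times in unstimulated cells. Neither state gave a call alone, with log2 differences of -1.20 (SE 0.26, adjusted p = 0.139, limma) in stimulated and -1.07 (SE 0.26, adjusted p = 0.327, limma) in unstimulated cells. Averaged over both states Il10ra fell by 1.13 (SE 0.18, adjusted p = 0.0370, limma), and with same-numbered cultures averaged the adjusted p was 0.241.

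Foxp3 differed by a like factor in the same cultures, with a WT mean 2.43 times the cKO mean in stimulated and 2.49 times in unstimulated cells. The ratio of Il10ra to Foxp3 was 0.0622 and 0.0701 in cKO and 0.0598 and 0.0705 in WT stimulated libraries. The unstimulated ratio was 0.0827 and 0.0743 in cKO and 0.0592 and 0.0870 in WT libraries. Relative to Foxp3, Il10ra thus overlapped between the genotypes in both culture states. In vivo the ratio was 0.0675 and 0.0908 in cKO libraries, against 0.225 and 0.226 in WT libraries, which did not overlap. The share of all genes for which such a ratio does so was not computed. The part of Foxp3 in the Il10ra result was not tested.

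That averaged call for Il10ra was lost without the first or second unstimulated cKO library (adjusted p = 0.174 and 0.112, limma), the first or second stimulated cKO library (0.184 and 0.120), the second unstimulated WT library (0.0959) or the second stimulated WT library (0.0769). Without the first stimulated WT library, the stimulated difference was -1.50 and was called (adjusted p = 0.0492, limma). With 1 library fewer the sizes ranged from -1.29 to -0.98 for the average. It was -0.86 (adjusted p = 0.0470) without both second WT libraries and -1.04 (adjusted p = 0.577) without both first cKO libraries.

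Stimulation raised Il10ra in both genotypes, with every stimulated library above every unstimulated one of its genotype, as for 20.7% of all genes in cKO and 18.8% in WT cells. The stimulated mean was 2.78 times the unstimulated mean in cKO and 2.89 times in WT Treg. On the log2 scale Il10ra rose by 1.33 (SE 0.26, adjusted p = 0.0353, limma) in cKO cells, where 490 of 10710 genes were called (4.58%). It rose by 1.45 (SE 0.26, adjusted p = 0.0330, limma) in WT cells, where 260 were called (2.43%). In cKO cells these were 223 higher and 267 lower, and the split was 308 and 144 with median-of-ratios scaling and 229 and 114 with a common sum. The call for Il10ra was lost without any 1 of the 4 cKO libraries in cKO cells (adjusted p = 0.152 to 0.232, limma). In WT cells it was lost without any 1 of the 4 cKO libraries (0.0703 to 0.0762), the first unstimulated WT library (0.110) or the second stimulated WT library (0.143). Without both first cKO libraries the rise was 1.47 in cKO (adjusted p = 0.479) and 1.45 in WT cells (0.147).

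The median gene moved by -0.14 in cKO and -0.04 in WT cells in the same comparisons. The interaction was -0.12 (SE 0.37, adjusted p = 0.999). The stimulated cKO libraries reached about the level of the unstimulated WT libraries, whose second value of 16.5 FPKM fell between the 2 stimulated cKO values.

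Il10rb encodes the shared chain and lies on the plus strand at chr16:91406164-91425834 (GRCm38), where a same-strand predicted protein-coding gene, Gm21970, overlaps it from chr16:91391721-91419451, so how the reads were split between them is uncertain. In vivo it had 20.2 and 23.1 FPKM in cKO libraries, against 18.9 and 19.9 FPKM in WT libraries. In stimulated cultures it had 17.4 and 19.4 FPKM in cKO libraries, against 22.6 and 22.9 FPKM in WT libraries. In unstimulated cultures it had 25.6 and 22.1 FPKM in cKO libraries, against 26.4 and 18.8 FPKM in WT libraries. The cKO pair was above the WT pair in vivo, as for 21.5% of all genes, and below it in stimulated cells, as for 29.8%. In unstimulated cells the 2 pairs overlapped.

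The 12 values of Il10rb lay between 17.4 and 26.4 FPKM, and 0 of the 7 comparisons called it (limma, smallest unadjusted p = 0.104). Its log2 differences between cKO and WT were 0.15 in vivo (SE 0.12, adjusted p = 0.597), -0.29 stimulated (SE 0.19, adjusted p = 0.531) and 0.09 unstimulated (SE 0.19, adjusted p = 0.978). Upon stimulation Il10rb moved by -0.35 (SE 0.19, adjusted p = 0.338, limma) in cKO and by 0.02 (SE 0.19, adjusted p = 0.961, limma) in WT cells. These p-values do not show that the levels were the same.

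Because both chains are needed for a receptor, the level of Il10ra relative to Il10rb was computed in each library. In vivo the ratio was 0.380 and 0.460 in cKO libraries, against 1.27 and 1.21 in WT libraries. In stimulated cells it was 0.848 and 0.965 in cKO libraries, against 1.40 and 2.15 in WT libraries. In unstimulated cells it was 0.231 and 0.278 in cKO libraries, against 0.435 and 0.874 in WT libraries. FPKM of Il10ra was below that of Il10rb in all 6 cKO libraries, and above it in the WT libraries in vivo and after stimulation. As Il10rb only lay between 17.4 and 26.4 FPKM, the ratio is no result separate from that of Il10ra. How often ratios of other genes part the genotypes was not computed.

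**Figure D2:**
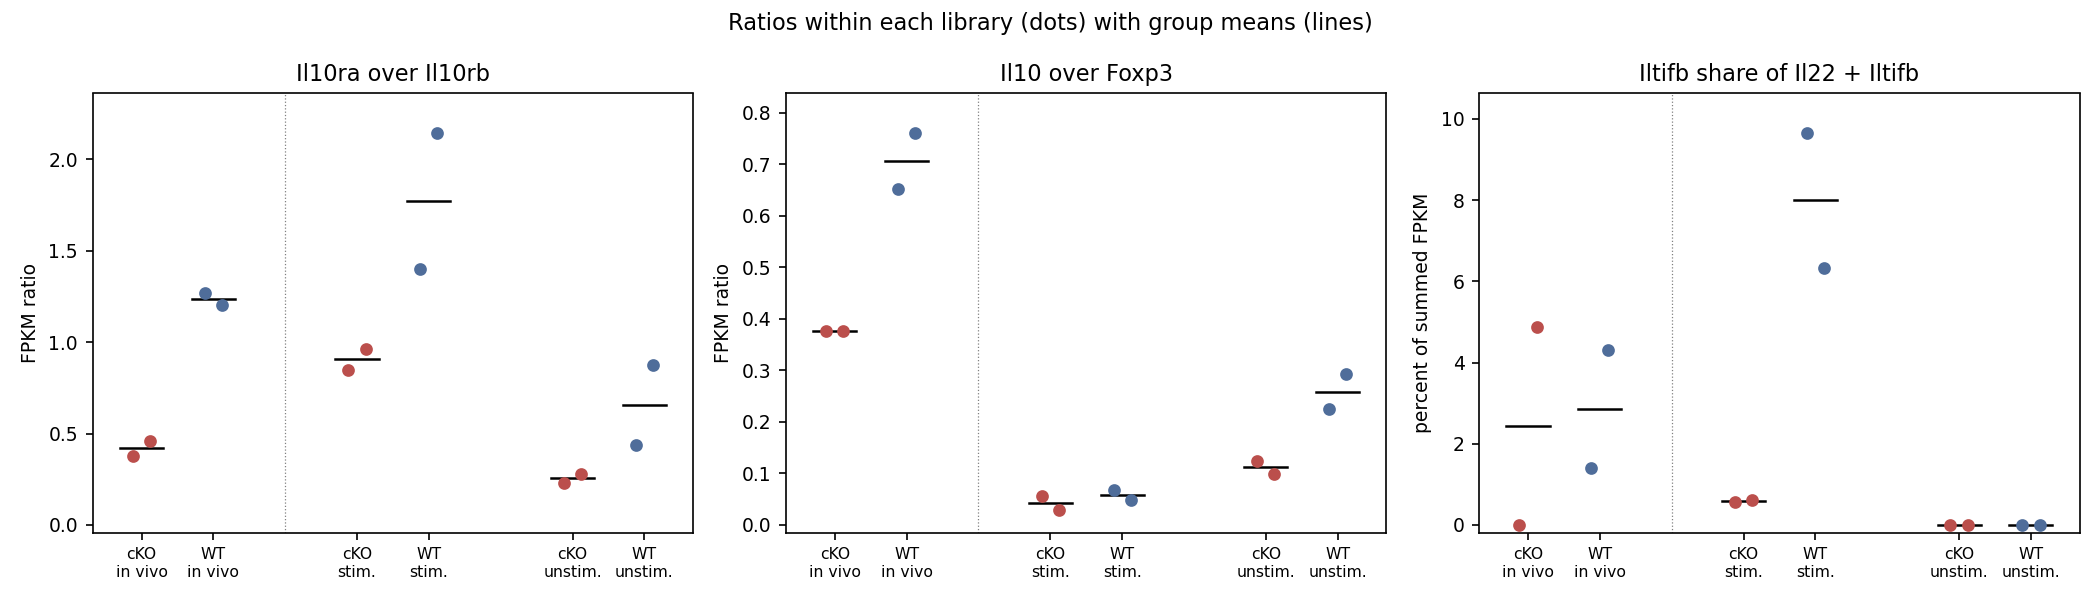
Ratio of Il10ra to Il10rb and of Il10 to Foxp3 (FPKM over FPKM), and the share of Iltifb, a near-identical copy of Il22, in the summed FPKM of both (percent), with points for the 12 libraries and lines for group means. The ratio of Il10ra to Il10rb was lower in both cKO libraries than in both WT libraries in all 3 settings, while the ratio of Il10 to Foxp3 overlapped between genotypes in stimulated cells. How often ratios of other genes part the genotypes was not computed. Iltifb made up under 1% in stimulated cKO libraries, against 9.66% and 6.33% in stimulated WT libraries.

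Il22 lies on the plus strand at chr10:118204942-118210047 (GRCm38) and has a near-identical copy, Iltifb, on the minus strand at chr10:118289629-118295038. Their coding sequences have 537 bases each and differ at 9 positions with no gap, an identity of 98.3%, and 41% of all 50-base windows of the Il22 transcript also occur in that of Iltifb. Reads from these stretches fit both genes, so the split between them is uncertain. The stretch of 120 coding bases below, at coding positions 98 to 217, is shown because it holds 5 of the differing bases, which are in capitals. It spans chr10:118205088-118205600 for Il22 and chr10:118294380-118294892 for Iltifb with an intron in between, and both are from the GENCODE transcripts, read 5′ to 3′ on the strand of each gene.
Il22: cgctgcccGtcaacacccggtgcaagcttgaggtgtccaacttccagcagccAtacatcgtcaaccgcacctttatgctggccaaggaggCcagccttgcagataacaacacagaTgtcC
Iltifb: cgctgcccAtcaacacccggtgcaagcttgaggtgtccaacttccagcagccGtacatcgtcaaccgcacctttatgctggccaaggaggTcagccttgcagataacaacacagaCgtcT

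Il22 was the member with the widest range. In stimulated cultures it had 504 and 215 FPKM in cKO libraries, against 196 and 129 FPKM in WT libraries. In unstimulated cultures it had 1.81 and 0.735 FPKM in cKO libraries, against 0.541 and 0.822 FPKM in WT libraries. Every stimulated library was thus at least 129 FPKM and every unstimulated one below 2 FPKM, and the stimulated mean was 282 times the unstimulated mean in cKO and 238 times in WT Treg. On the log2 scale Il22 rose by 7.22 (SE 0.42, adjusted p = 0.000887, limma) in cKO and by 6.58 (SE 0.42, adjusted p = 0.000885, limma) in WT cells. The rise was called under every alternative that was run, including cKO cells without both first cKO libraries (6.96, adjusted p = 0.00708) and WT cells without both second WT libraries (adjusted p = 0.00796).

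Both stimulated cKO libraries had more Il22 than both stimulated WT libraries, as for 18.5% of all genes, but the cKO values were far apart and the lower of them, 215 FPKM, was close to the higher WT value of 196 FPKM. The log2 difference was 1.05 (SE 0.42, unadjusted p = 0.0363, adjusted p = 0.319, limma) and was not called. It was 0.75 without both second WT libraries and 0.43 without both first cKO libraries. In unstimulated cells the genotypes overlapped, with a difference of 0.40 (SE 0.42, adjusted p = 0.948, limma), and the interaction of genotype and stimulation was 0.65 (SE 0.59, adjusted p = 0.999).

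In vivo Il22 had 1.65 and 4.49 FPKM in cKO libraries, against 7.67 and 4.90 FPKM in WT libraries. Both cKO values were below both WT values, as for 25.8% of all genes tested in vivo, though the nearest pair was 4.49 and 4.90 FPKM. The log2 difference was -0.91 (SE 0.35, unadjusted p = 0.0382, adjusted p = 0.356, limma), and it was not called. Without the second cKO library it was -1.43 and was called (adjusted p = 0.00726), in a fit that called 1994 genes in place of 39, and without the first cKO library it was -0.38.

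Iltifb was listed at 0 in all 4 unstimulated libraries. In stimulated cultures it had 2.90 and 1.32 FPKM in cKO libraries, against 20.9 and 8.71 FPKM in WT libraries. Both cKO values were thus below both WT values, as for 29.8% of all genes. Its log2 difference there was -2.28 (SE 0.45, adjusted p = 0.120, limma) and was not called. Upon stimulation Iltifb rose by 3.87 on the log2 scale in WT cells and was called, where 2.43% of all genes were called. In cKO cells it rose by 1.59 (SE 0.45, adjusted p = 0.0890, limma) and was not called. As a share of the 2 genes' summed FPKM, Iltifb made up 0.574% and 0.611% in stimulated cKO libraries, against 9.66% and 6.33% in stimulated WT libraries. In vivo Iltifb stayed at or below 0.23 FPKM.

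When the 2 copies were summed, stimulated cKO libraries had 506 and 216 FPKM, against 217 and 138 FPKM in stimulated WT libraries, and the second cKO library was just below the first WT library. The log2 difference of the sum was 0.93 (adjusted p = 0.370, limma). The rise upon stimulation was 7.23 in cKO and 6.70 in WT cells with the sum, and both remained called. Summing was an alternative chosen after seeing the data.

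**Figure D3:**
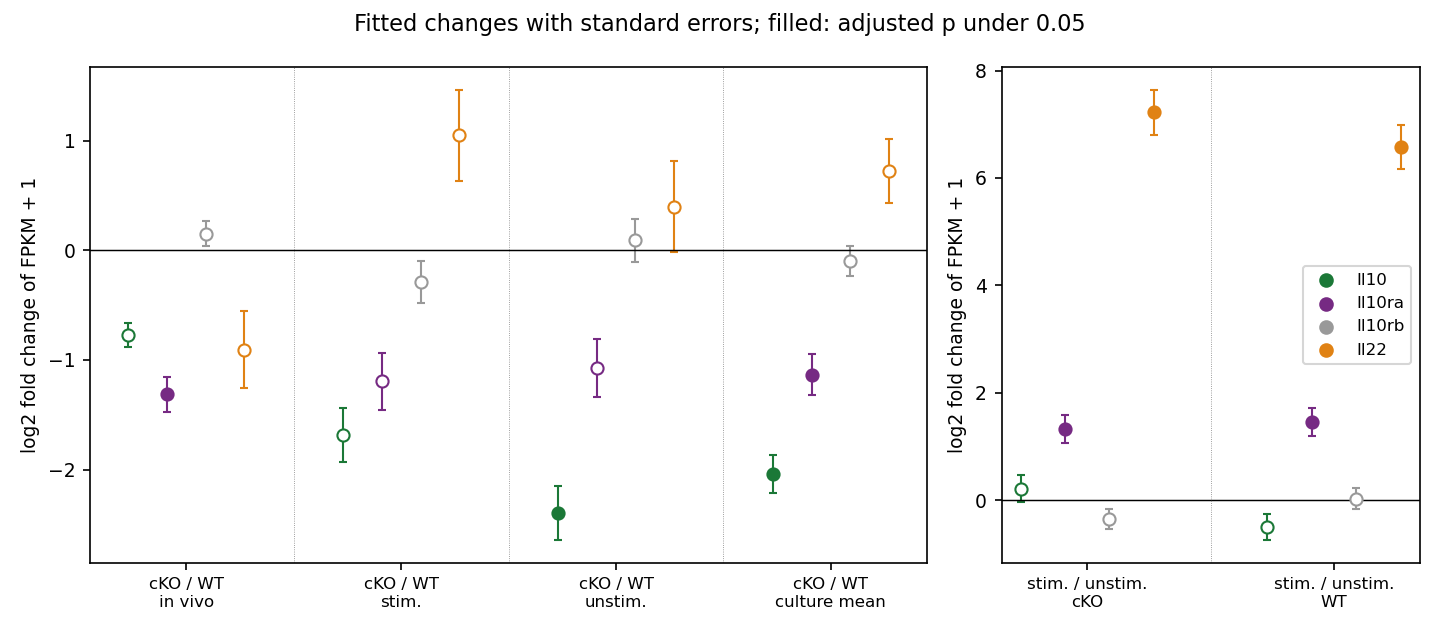
Log2 fold changes of FPKM + 1 (y axis) for Il10, Il10ra, Il10rb and Il22 in the 4 cKO over WT comparisons and the 2 stimulated over unstimulated ones, with bars of 1 SE on each side and filled points for called values. Il10 and Il10ra lie below 0 in every cKO over WT comparison, Il10rb lies between -0.35 and 0.15 in all 6, and Il22 reaches 7.22 and 6.58 upon stimulation in cKO and WT cells.

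The ligands and receptor chains of the family that are not among the 4 genes were scarcely detected. Of the ligands Il19, Il20, Il24, Iltifb, Ifnl2 and Ifnl3, only Iltifb passed the minimum mean of 1 FPKM in vitro and none did in vivo, where 2 of the 6 were in the table. Il20, Ifnl2 and Ifnl3 were listed at 0 in all 8 in vitro libraries. Among the receptor chains Il20ra, Il20rb, Il22ra1, Il22ra2 and Ifnlr1, only Il20rb, a chain of the receptors for IL-19, IL-20 and IL-24, passed the minimum. It had 1.11 and 1.06 FPKM in cKO and 1.84 and 4.26 FPKM in WT stimulated cells, a log2 difference of -0.89 (SE 0.38, adjusted p = 0.348, limma). Il22ra1, the chain that gives a cell its response to IL-22, was listed at 0 in all 8 in vitro libraries and had at most 0.14 FPKM in vivo.

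The kinases and transcription factors downstream of the receptors (Jak1, Tyk2, Stat3, Stat5a and Stat5b) showed 0 calls among 5 genes between cKO and WT in each of the 4 genotype comparisons (limma), with at most 2 at an unadjusted p under 0.05. Over all genes tested, 6.56% to 16.2% were under that value in these 4 comparisons. Stat3, the main transducer of IL-10 and IL-22, had 225 and 213 FPKM in cKO and 211 and 231 FPKM in WT stimulated libraries, which overlapped. Its log2 difference was -0.01 (SE 0.13) there and 0.15 (SE 0.10) in vivo. The median of the 5 log2 differences was 0.15 in vivo and -0.08 averaged over both culture states, beside -0.02 and -0.01 for all genes tested. Upon stimulation Stat5a, which transmits IL-2 signals, was the only call of the 5, with a log2 difference of -0.77 (adjusted p = 0.0495, limma) in cKO cells. That call was lost without any 1 of the 8 in vitro libraries (adjusted p = 0.0545 to 0.358), and with median-of-ratios scaling it was -0.63 (adjusted p = 0.102).

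Genes that IL-10 and STAT3 signalling is known to induce in blood cells gave 1 call in 10 between the genotypes, in vivo, where 0.374% of all genes were called. Bcl3, a nuclear partner of NF-kB, had 41.5 and 46.1 FPKM in cKO Treg in vivo, against 21.2 and 20.8 FPKM in WT. It rose by 1.02 (SE 0.11, adjusted p = 0.0261, limma) in cKO Treg in vivo, opposite in sign to Il10 and Il10ra. The call was lost without the first or the second WT library (adjusted p = 0.0760 and 0.125). In stimulated cells Bcl3 had 22.9 and 26.4 FPKM in cKO libraries, against 35.1 and 64.1 FPKM in WT libraries. There the cKO pair was the lower one, as for 29.8% of all genes.

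In stimulated cells 9 of these 10 genes had a log2 difference below 0 between cKO and WT, with a median of -0.56 beside -0.05 for all genes tested, and 0 were called (limma), with 7 of the 10 at an unadjusted p under 0.05, as for 14.1% of all genes. In vivo the median was -0.02, beside -0.02 over all genes. The most abundant of them, averaged over both culture states, were Junb, part of the AP-1 factor, with -0.64 (SE 0.11, adjusted p = 0.0501), and Pim1, a survival kinase, with -0.48 (SE 0.15, adjusted p = 0.184). Tnfaip3, an inhibitor of NF-kB signalling, had -0.69 (SE 0.12, adjusted p = 0.0516, limma). Upon stimulation Nfil3, a transcription factor, rose by 1.24 in cKO and 1.48 in WT cells, and Il4ra, the receptor chain of IL-4 and IL-13, by 0.93 in cKO and 0.94 in WT cells. Without 1 of the 4 cKO libraries the cKO calls were lost in all 4 fits for Il4ra (adjusted p = 0.0751 to 0.117) and in 3 for Nfil3 (0.0548 to 0.0638), and the WT call of Il4ra was lost without the second stimulated WT library (0.0566).

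Of 16 transcription regulators with known roles at Il10 or Il22 in T cells, 0 were called between cKO and WT in any of the 4 genotype comparisons (limma). At most 3 had an unadjusted p under 0.05, beside 6.56% to 16.2% of all genes in these comparisons. Their median log2 difference was -0.16 in vivo and -0.04 averaged over both culture states, beside -0.02 and -0.01 for all genes. The most abundant were Bhlhe40, a repressor of Il10 in mouse T cells, with -0.29 (SE 0.18, adjusted p = 0.531) in vivo, and Id2, an inhibitor of E proteins, with -0.63 (SE 0.24, adjusted p = 0.356) in vivo. Irf4, an activation-induced factor, was called higher upon stimulation, by 1.75 in cKO and 1.74 in WT cells, as the only one of the 16. Its cKO call was lost without any 1 of the 4 cKO libraries (adjusted p = 0.0749 to 0.102) and its WT call without the second stimulated WT library (0.0578).

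The remaining named regulators were chosen after their values were seen. Maf, which drives Il10 in T cells, had 39.6 and 54.3 FPKM in cKO Treg in vivo, against 55.0 and 66.3 FPKM in WT. Ahr, the aryl hydrocarbon receptor, which drives Il22, had 9.21 and 13.2 FPKM in cKO Treg in vivo, against 16.5 and 17.5 FPKM in WT. Prdm1, which encodes Blimp-1, overlapped between the genotypes at 5 and 8.52 FPKM in cKO and 6.07 and 7.09 FPKM in WT Treg in vivo. Both cKO values of Maf and of Ahr were below both WT values, as for 25.8% of all genes tested in vivo. Neither was called in vivo, with adjusted p-values of 0.413 for Maf and 0.257 for Ahr (limma). Without the second cKO library both were called, at 0.0153 for Maf and 0.00431 for Ahr, as were Bhlhe40 (0.00544) and Id2 (0.00154), in a fit that called 1994 genes in place of 39. Of the 16 regulators, 12 had a difference below 0 in vivo and 4 above 0. Ikzf3 and Tbx21 lay higher in both cKO libraries in vivo, as for 21.5% of all genes. Ikzf3 had 78.9 and 71.4 FPKM in cKO and 59.1 and 61.9 FPKM in WT. Tbx21 had 6.47 and 7.56 FPKM in cKO and 6.41 and 5.85 FPKM in WT. In culture, Batf, an AP-1 family factor, had 27.6 and 20.8 FPKM in cKO and 37.8 and 42.1 FPKM in WT stimulated libraries, and 17.4 and 22.5 FPKM in cKO and 31.2 and 32.8 FPKM in WT unstimulated libraries. The cKO pair was the lower one in both states, as for 29.8% of all genes in stimulated and 16.6% in unstimulated cells, and the share for both together was not computed. Averaged over both states Batf differed by -0.69 (SE 0.14, adjusted p = 0.0642, limma) and was not called.

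Receptors of the cytokines and costimuli that raise Il10 or Il22 were also not called between the genotypes, with 0 of 12 in each of the 4 comparisons (limma). At most 4 had an unadjusted p under 0.05, in vivo and in the culture average, where 13% and 16.2% of all genes did. In vivo 10 of the 12 differences were below 0, with a median of -0.15 beside -0.02 for all genes. In the culture average 6 were below 0, with a median of 0.01 beside -0.01. Upon stimulation Il2ra, the high-affinity chain of the IL-2 receptor, rose by 1.83 in both cKO and WT cells. In cKO cells Icos, a costimulatory receptor, rose by 1.71 and Il2rb, a further chain of the IL-2 receptor, by 0.76, while Il21r, the IL-21 receptor, fell by 0.77. Leaving out 1 of the 4 cKO libraries ended the cKO calls of Il2rb and Il21r each time (adjusted p = 0.111 to 0.324), and those of Il2ra and Icos in 3 of the 4 fits (0.0539 to 0.146). With median-of-ratios scaling Il21r was at -0.63 (adjusted p = 0.0757). Icos, Il2rb and Il21r were not called in WT cells, and the interaction term called none of the 12.

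**Figure D4:**
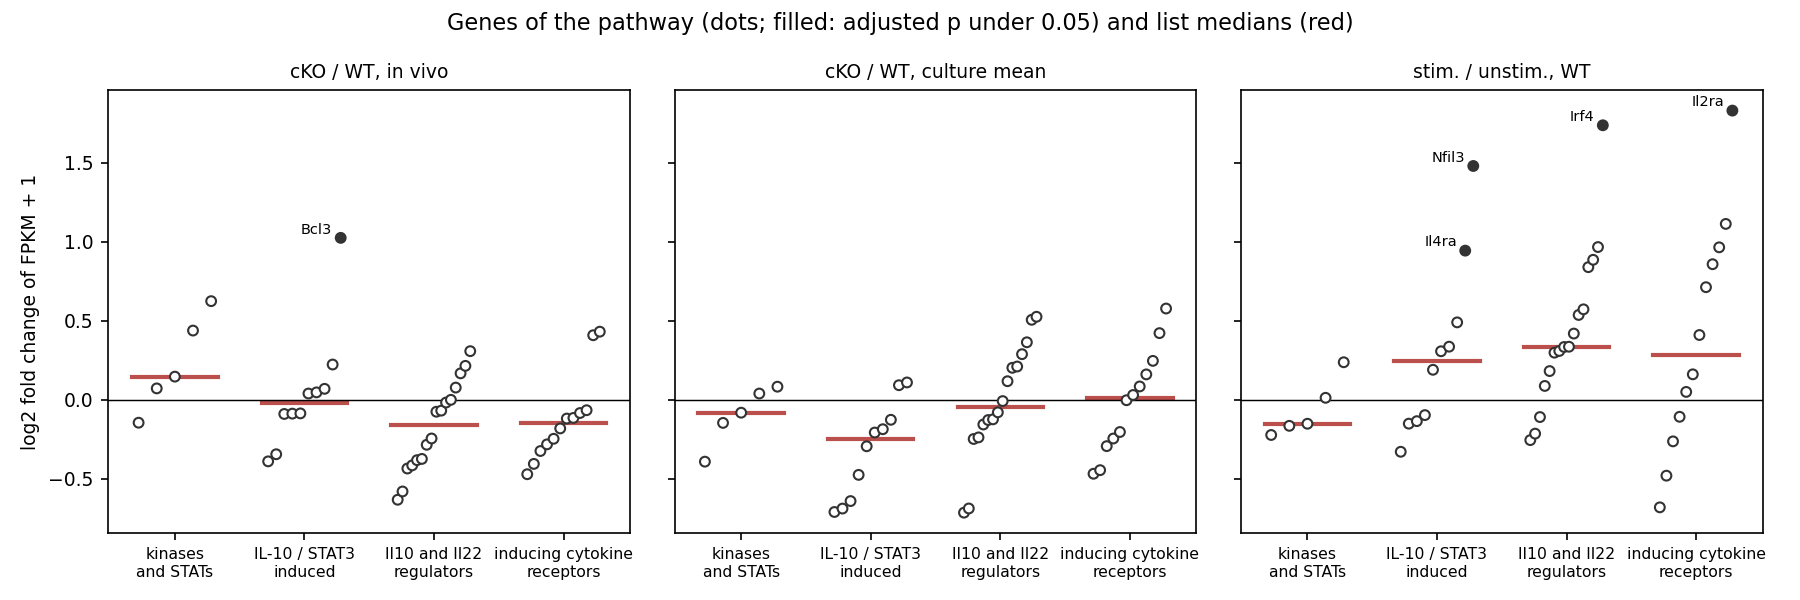
Log2 fold changes of FPKM + 1 (y axis) for the genes of 4 pathway lists, between cKO and WT in vivo, between cKO and WT averaged over both culture states, and between stimulated and unstimulated WT cells, each point 1 gene (filled where called) and each red line the median of a list. Bcl3 in vivo, at 1.02, is the only filled point in the 2 genotype panels, while Nfil3, Il4ra, Irf4 and Il2ra are filled in the stimulation panel.

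Over the 8 in vitro libraries, the genes whose log2(FPKM + 1) followed each member most closely were listed among 7440 genes, as Pearson r with no test, since the libraries share 4 groups and their depths. For Il10 they were Ppp1r2 (0.97), Gna13 (0.96) and Txnl4a (0.96). Il10ra was closest to Ppp1r15b (0.99), Foxp3 (0.98) and Klhl2 (0.98). Il10rb was closest to Pcbp4 (0.97), Mpdu1 (0.94) and Susd3 (0.94), and Il22 to Zdhhc23 (0.99), Nabp1 (0.99) and Nfil3 (0.98). Between members r was 0.53 for Il10 with Il10ra, 0.67 for Il10ra with Il22 and -0.14 for Il10 with Il22.

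Genes next to the members on the chromosome were compared as well. The nearest gene on each side that was tested both in vivo and in vitro was taken, a rule chosen after seeing the data. This rule left out Iltifb, which lies between Il22 and Ifng but was too low to be tested in vivo. Iltifb was called higher upon stimulation in WT cells. None of the 8 neighbours was called in any of the 7 comparisons (limma), and 17 of these 56 tests had an unadjusted p under 0.05. That was 1 to 4 of the 8 in a comparison, where 3.55% to 21.4% of all genes were under that value. Mapkapk2, 28.7 kb from Il10, had log2 differences between cKO and WT of -0.06 in vivo and -0.36 (SE 0.09, adjusted p = 0.108) averaged over both culture states. Ifng, the interferon gamma gene 231 kb from Il22, differed between stimulated and unstimulated cells by 1.01 (SE 0.34, adjusted p = 0.137) in cKO and 0.98 (SE 0.34, adjusted p = 0.182) in WT cells. Ifnar2, a receptor chain of the type I interferons 0.575 kb from Il10rb, differed by -0.04 between cKO and WT in vivo.

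Among markers of cells that can also express the 4 genes, B cell markers and the summed myeloid markers differed between the genotypes. The summed FPKM of 7 B cell markers was 17.1 and 25.6 in cKO and 49.7 and 65.4 in WT Treg in vivo. Cd79a was called lower there, as for 0.144% of all genes. In stimulated cultures the sum was 148 and 149 in cKO libraries, against 46.4 and 41.1 in WT libraries. In unstimulated cultures it was 169.9 and 179 in cKO libraries, against 32.5 and 34.3 in WT libraries. The B cell sum was thus lower in cKO than in WT Treg in vivo and higher in vitro. In the average over both culture states 6 of the 7 were called higher, beside 68 of 10710 genes tested (0.635%). Of the B cell markers, Cd22 was at 0 in 1 stimulated WT library.

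For 8 myeloid markers the sum was 50.9 and 65.2 FPKM in cKO and 77.3 and 75.6 FPKM in WT Treg in vivo. It was 83.6 and 49.0 FPKM in cKO and 28.1 and 23.4 FPKM in WT stimulated cells, and 134 and 56.3 FPKM in cKO and 21.6 and 34.7 FPKM in WT unstimulated cells. Lyz2 was called higher in the average over both culture states, as for 0.635% of all genes. All 6 tested markers were above 0 in that average, but Lyz2 was the largest part of the sum in every cKO culture. It had 46.7 and 33.4 FPKM in cKO and 4.67 and 1.79 FPKM in WT stimulated cells. Fcer1g overlapped between the genotypes, with 20.6 and 7.63 FPKM in cKO and 16.5 and 17.7 FPKM in WT stimulated cells. It overlapped in unstimulated cells too. Itgam, Csf1r, Cd14 and Cd68 were at 0 in the second stimulated WT library and Adgre1 in the second unstimulated one. The part of B cell and myeloid RNA in the results for Il10 and Il10ra was not tested.

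For Il22, 7 markers of type 3 innate lymphoid and Th17 cells summed to 68.2 and 40.9 FPKM in cKO and 51.7 and 29.0 FPKM in WT stimulated cells. They summed to 52.6 and 36.1 FPKM in cKO and 34.6 and 31.5 FPKM in WT unstimulated cells, and to 21.3 and 39.4 FPKM in cKO and 41.8 and 42.4 FPKM in WT Treg in vivo. The stimulated and unstimulated sums overlapped within each genotype, but the 2 IL-17 genes in the list moved with Il22 in cKO cells. Il17a had 14.5 and 7.10 FPKM in stimulated cKO libraries, against 0.292 and 0.287 FPKM in unstimulated ones, and 5.78 and 0 FPKM in stimulated WT libraries, against 0.0717 and 0 FPKM in unstimulated ones. Il17f had 7.94 and 4.05 FPKM in stimulated cKO libraries, against 0.341 and 0.137 FPKM in unstimulated ones, and 6.38 and 0 FPKM in stimulated WT libraries, against 0.445 and 1.35 FPKM in unstimulated ones. In cKO cells both stimulated libraries were thus above both unstimulated ones for each gene, while in WT cells the states overlapped. The log2 differences upon stimulation in cKO cells were 3.12 for Il17a (adjusted p = 0.0689, limma) and 2.44 for Il17f (adjusted p = 0.137, limma), and neither was called. Of the 7, 6 were tested and 0 called between cKO and WT (limma), with at most 2 at an unadjusted p under 0.05 in a comparison. Il17a and Ncr1 were at 0 in the second WT libraries of both states, with Il17f at 0 in the stimulated one. Their part in the Il22 result was not tested. For 7 markers of CD8 T and NK cells the sum was 28.6 and 20.4 FPKM in cKO and 28.2 and 33.1 FPKM in WT Treg in vivo, and it lay between 2.08 and 12.7 FPKM in vitro, with 0 called by genotype and 0 at an unadjusted p under 0.05.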

How the data were processed

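Polyadenylated RNA of 12 Treg libraries in 6 groups was analysed from 2 tables of FPKM that the authors deposited, 1 for in vivo and 1 for in vitro libraries, each normalised on its own. HISAT2 2.2.1 and StringTie 2.1.1 and the builds mm10 and hg19 are named, per the submitters' processing notes, without roles. Neither depth nor strand handling is given in the sources used here, so no counting interval was computed. A further 4 columns of per-library values match no library of the series and were not used. In vivo, 16196 of 16232 Entrez numbers matched a RefSeq symbol. In vitro, 23204 of 24421 symbols were RefSeq symbols and 1109 matched by a synonym. In vivo columns carry no replicate number, so first and second library follow the table's order there.

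Each table was fitted alone with limma 3.58.1 (R 4.3.3) on log2(FPKM + 1), with an empirical Bayes trend, two-sided tests, genes whose mean reached 1 FPKM (10415 in vivo, 10710 in vitro) and Benjamini-Hochberg adjustment, calling at 0.05. The 4 in vitro groups shared 1 model. The fit was run on simulated data with independent normal noise for each gene. That simulation held no outlying libraries and no cultures that deviate together, so it cannot decide whether the calls here hold. Named genes were the 4 members, called genes of each pathway list and up to 3 abundant uncalled ones, and the 3 genes of highest Pearson r with each member among those with a mean of at least 5 FPKM. The members and lists were chosen with earlier results of these data known. Alternatives were a pseudocount of 0.1, no filter, other scalings, haemoglobin genes removed, a replicate block across and within genotypes, fits of only the libraries compared, and libraries left out. Marker lists covered Treg, B cells, myeloid cells, type 3 innate lymphoid and Th17 cells, CD8 T and NK cells, and erythroid cells. Of the listed genes, 2 are not reported here and enter no list's count, median or sum. Positions and transcripts are GENCODE's for GRCm38.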

Additional observations from a re-analysis of the deposited data

Results flagged for a closer look

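Il22 and Il10rb were flagged because both cKO libraries lay on one side of both WT libraries in vivo and on the other side in stimulated cultures. Lying on one side was common. In vivo both cKO libraries were the lower ones for 25.8% of all genes and the higher ones for 21.5%. In stimulated cells these shares were 29.8% and 18.5%. The share of all genes that changed sides was not computed. The log2 difference between cKO and WT for Il22 was -0.91 in vivo and 1.05 in stimulated cells. For Il10rb it was 0.15 in vivo and -0.29 in stimulated cells. None of these 4 differences was called by limma, and because the 2 tables were normalised separately the change of direction was not tested.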

How the results depend on the processing

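Of 458 values recomputed under alternatives for the 4 genes in 7 comparisons, 401, mostly uncalled, kept direction and call. Of the rest 38 lost a call, 6 gained one and 13 changed sign, and 14 of the 28 results kept both throughout. Each called Il10 or Il10ra result lost its call in 2 to 11 fits, the Il22 rises upon stimulation in none. Without a filter on low values, more genes were tested and calls were lost for Il10 in unstimulated cells (-2.40) and for Il10ra in vivo (-1.31), in the culture average (-1.13) and upon stimulation in cKO (1.33) and WT (1.45) cells. Median-of-ratios scaling called Il10 in vivo (-0.75) and lost Il10ra in the culture average (-1.09), and a common sum did the same (-0.76 and -1.24). With only the 4 libraries compared, Il10ra upon stimulation in WT cells (1.45) was lost. Without both second WT libraries, Il10 in unstimulated cells (-2.23) was lost, and Il10rb turned to -0.14 between genotypes in unstimulated cells and to -0.22 upon stimulation in WT cells. Without both first cKO libraries, calls were lost for Il10 in unstimulated cells (-2.46) and in the average (-2.25) and for Il10ra in the average (-1.04) and upon stimulation in cKO (1.47) and WT (1.45) cells. In that fit Il10rb turned to -0.014 in unstimulated cells, Il10 upon stimulation in cKO cells to -0.088 and the Il10ra interaction to 0.016. The cause of these changes was not tested.

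Leaving out 1 library at a time, the ranges for Il10 were -2.57 to -2.23 in unstimulated cells, -0.88 to -0.67 in vivo and -0.15 to 0.57 upon stimulation in cKO cells. Il10 in vivo was called without either cKO library (adjusted p = 0.0124 and 0.00455, limma), in fits that called 425 and 1994 genes in place of 39. For Il10ra they were -1.52 to -1.10 in vivo, -1.50 to -0.89 in stimulated cells, -1.29 to -0.98 in the culture average, 1.17 to 1.49 upon stimulation in cKO and 1.14 to 1.76 in WT cells, and -0.43 to 0.19 for the interaction. For Il10rb they were -0.14 to 0.32 in unstimulated cells, -0.22 to 0.016 in the average and -0.21 to 0.26 upon stimulation in WT cells. Il22 in vivo ranged from -1.43 to -0.38. Where an arm had 1 library, it was assumed to vary like the others.

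Among other named genes, Stat3 in stimulated cells turned to 0.080 with median-of-ratios scaling, 0.074 without haemoglobin genes and 0.050 without both second WT libraries, and ranged from -0.077 to 0.050 with 1 library left out. In vivo, with 1 library left out, Bhlhe40 ranged from -0.58 to 0.0066, Mapkapk2 from -0.23 to 0.099 and Ifnar2 from -0.17 to 0.093.

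The numbers in the labels do not say that same-numbered libraries share a mouse or a day, and deviations of same-numbered libraries correlated by -0.138 to 0.0577 between genotypes, so the numbers were not taken as pairs across them. Within a genotype the correlation was 0.42 in cKO and 0.239 in WT cells. With a replicate block within genotype, the averaged differences of Il10 (-2.04, adjusted p = 0.1001) and Il10ra (-1.13, 0.241) were not called, while Il10ra and Il22 upon stimulation were called in both genotypes. That fit called 0 genes in the average, 468 upon stimulation in WT and 839 in cKO cells. With a replicate block across genotypes no call changed for the 4 genes: Il10 in unstimulated cells stayed at -2.40 (adjusted p = 0.0339), Il10ra in the average at -1.13 (0.0222), and the counts of calls were 8 in unstimulated cells, 0 in place of 2 in stimulated cells and 166 in the average. In vivo no paired analysis was possible because the columns carry no replicate number.

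Counts over all genes moved more than the 4 genes. In the order in vivo, unstimulated, stimulated, culture average, stimulation in WT and stimulation in cKO, 39, 8, 2, 116, 260 and 490 genes were called, and 0, 1, 0, 35, 92 and 185 without a filter. Others were 74 in vivo with median-of-ratios scaling, 14 unstimulated and 4 stimulated without haemoglobin genes, and 0 stimulated with a pseudocount of 0.1. With only the 4 libraries compared there were 0 stimulated, 34 upon stimulation in WT and 1918 in cKO cells. Without both second WT libraries the counts were 52 unstimulated, 7 stimulated, 185 in the average, 1932 upon stimulation in cKO cells and 5 for the interaction. Without both first cKO libraries they were 0 unstimulated, 0 stimulated, 0 in the average, 32 upon stimulation in WT and 1 in cKO cells. With 1 library left out they were 17 to 1994 in vivo, 0 to 28 unstimulated, 0 to 197 stimulated, 7 to 329 in the average, 95 to 966 upon stimulation in WT, 12 to 660 in cKO cells and 0 to 3 for the interaction. Median-of-ratios scaling moved the median of all genes upon stimulation in cKO cells to -0.02, against -0.14 in the deposited FPKM. Unknown depth limits statements on the low values of Il22 in unstimulated cells and of Iltifb.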

Other observations

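Erythroid markers were the list that differed most between single libraries in vitro. Of 7 such markers, 6 passed the minimum there, and 3 were called higher in cKO than in WT cells averaged over both culture states (Hbb-bs, Hbb-bt and Hba-a2), though none with same-numbered cultures averaged. Of all genes tested, 0.635% were called higher in that average. Haemoglobin genes held 10.3% and 1.86% of all FPKM in stimulated cKO libraries, against 0.0812% and 0.548% in stimulated WT libraries. In unstimulated cells they held 11.6% and 1.33% in cKO libraries, against 0.00678% and 0.335% in WT libraries. In vivo they held at most 0.00342% of all FPKM. Removing the haemoglobin genes and rescaling changed no call for Il10, Il22, Il10ra or Il10rb.

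Fcmr, the Fc receptor for IgM, which is abundant on B cells, is the neighbour taken by the same rule on the other side of Il10 from Mapkapk2. Its log2 difference between cKO and WT was -1.43 (SE 0.22, adjusted p = 0.0625, limma) in vivo and 1.61 (SE 0.29, adjusted p = 0.0517, limma) averaged over both culture states, the same directions as the sums of B cell markers.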
